A study of Mus musculus with 4 samples.

Results

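Galectins and the galectin-binding glycoprotein Lgals3bp were examined on arrays of fibroblast RNA from Zip13KO and WT mice, as the rows of the expression table whose single gene symbol was Lgals1, Lgals2, Lgals3, Lgals4, Lgals7, Lgals8, Lgals9, Lgals12 or Lgals3bp. All 9 genes had a row among the 22180 genes tested, and Lgals3bp had a second, so that 10 of the 41345 rows of the table belonged to the group. The study profiled total RNA on 4 Affymetrix single-colour arrays, 2 biological replicates labelled Zip13KO and 2 labelled WT. Zip13 is the protein of Slc39a13, a zinc transporter of the secretory pathway, and the stated interest was zinc balance and the structure of the Golgi and the perinuclear region. The sources used here name no type of Zip13 allele, strain or age of the mice, nor the site or culture of the fibroblasts. Whether replicates came from separate animals is not stated either, so the spread between arrays may be partly technical. The group was chosen by family name with the Zip13KO minus WT differences already known, Lgals3bp having been selected on its place among the most raised genes. The values of its members are therefore given as a description of these 4 arrays, and a call among them is not an independent test.

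Galectins are small lectins that bind beta-galactoside sugars on glycoproteins and glycolipids. They are made in the cytosol and leave the cell by a route that bypasses the endoplasmic reticulum and the Golgi, whereas the branched, galactose-tipped glycans they bind outside the cell are built by Golgi enzymes. Prototype galectins (here Lgals1, Lgals2 and Lgals7) have a single sugar-binding domain, the chimera type (Lgals3) joins such a domain to a long flexible tail, and tandem-repeat galectins (Lgals4, Lgals8, Lgals9 and Lgals12) join a pair of them in 1 chain. Lgals3bp is not a galectin. It is a heavily glycosylated secreted protein with a scavenger receptor cysteine-rich domain that passes through the Golgi and binds galectins, integrins and matrix proteins, and in human and mouse cells it is known to respond to interferon.

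The arrays of a group resembled each other more than those of the other group, with Pearson's r over all rows of 0.994 within each group and 0.983 to 0.985 between groups. Slc39a13 itself had log2 intensities of 8.89 and 8.98 on the Zip13KO arrays and 8.94 and 8.85 on the WT arrays, with overlapping groups. Where its probes lie against the deleted or mutated segment is unknown, so this row does not check the labels, and directions follow them. Of 12 fibroblast markers, 10 lay above the array median on all 4 arrays, and Lum and Fap did not. Among 12 macrophage markers, 5 lay above it on all 4 arrays, beside 12692 of all 22180 genes. The summed intensity of the macrophage markers was 1205 to 1217 in Zip13KO and 1192 to 1264 in WT. Levels of different genes can be set against each other only roughly, since probes differ in how strongly they bind.

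Lgals3bp showed the largest difference of the group and Lgals3 the next. Lgals3bp had log2 intensities of 10.30 and 10.38 on the Zip13KO arrays, against 8.01 and 7.97 on the WT arrays. Both Zip13KO arrays lay more than 2 log2 units above both WT arrays, and the replicates of a group differed by less than 0.1. The means were 10.34 ± 0.05 in Zip13KO and 7.99 ± 0.03 in WT (SD, n = 2 each). The difference, Zip13KO minus WT, was 2.35 log2 units (SE 0.07, 95% interval 2.20 to 2.50), a 5.10-fold higher level that ranked 9 among the 22180 genes ordered from the most raised down. Across the 4 possible pairs of a Zip13KO and a WT array, the difference ran from 2.29 to 2.41.

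The second row annotated to Lgals3bp gave a smaller difference in the same direction. Its log2 intensities were 8.58 and 8.48 in Zip13KO and 7.75 and 7.64 in WT, again without overlap. In the fit over all rows of the table its difference was 0.84 (SE 0.08, 95% interval 0.64 to 1.03), or 1.79-fold. The first row exceeded the second by 1.72 and 1.89 log2 units on the Zip13KO arrays and by 0.26 and 0.33 on the WT arrays, so the rows lay 1.51 log2 units apart in their difference between genotypes. Among the 1082 genes with more than 1 row, the median gap between the highest and the lowest row difference was 0.12, and a gap as large as that of Lgals3bp was found for 3 genes, the others being Arsj at 2.53 and Ildr2 at 1.51. The parts of the transcript that each row measures are not known here. The mean of both rows put Lgals3bp at 1.59 log2 units, so the size of the difference depends on the row, while the direction was shared by both.

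**Figure D1:**
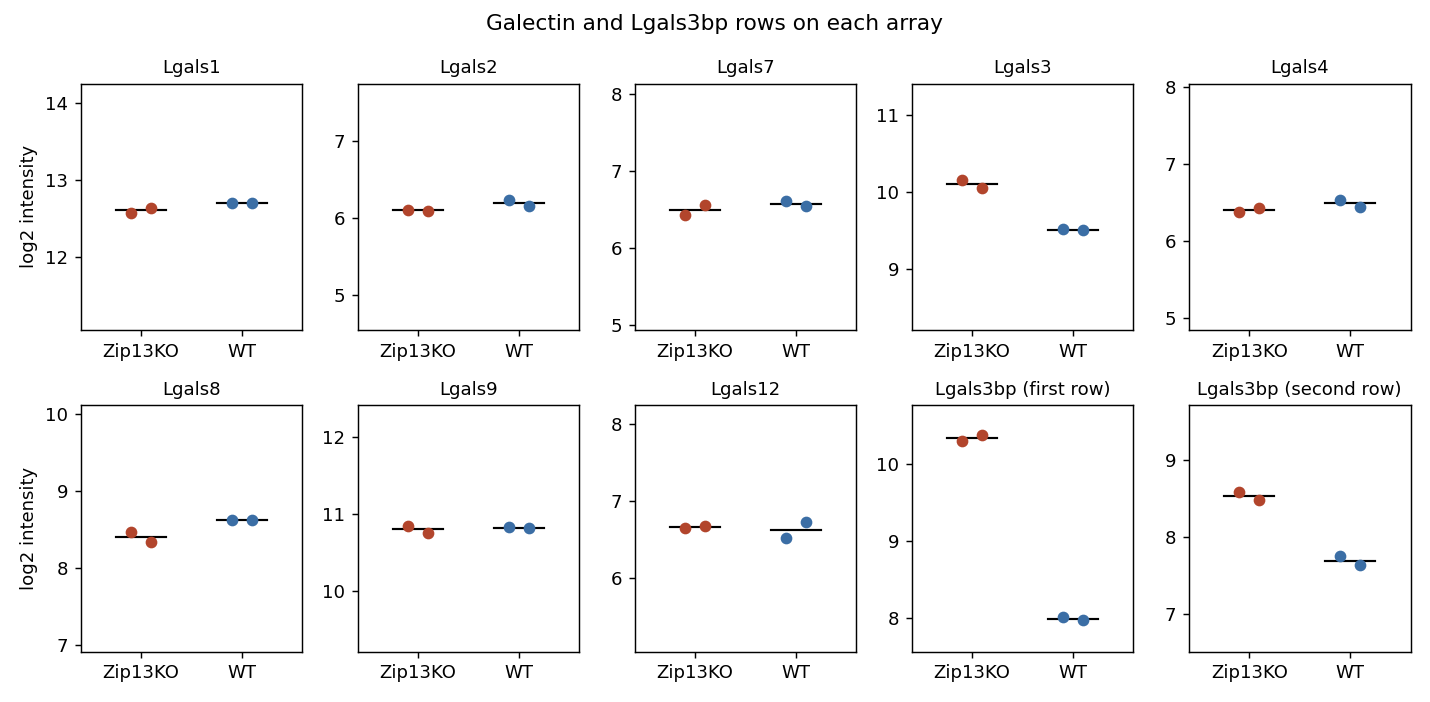
Log2 intensity (vertical axis) of each of the 10 rows on each array, with Zip13KO left of WT; points are arrays, horizontal lines are group means of 2 arrays, and every panel spans the same number of log2 units. Both rows of Lgals3bp and the row of Lgals3 lie higher on the Zip13KO arrays, while the points of the other rows lie close together.

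Lgals3, the chimera galectin that crosslinks glycoproteins at the cell surface and gathers on damaged vesicles, was also higher. Its log2 intensities were 10.15 and 10.05 in Zip13KO and 9.51 and 9.50 in WT. The groups did not overlap, and the gap between them exceeded the distance between replicates. The difference was 0.60 (SE 0.07, 95% interval 0.45 to 0.74), a 1.51-fold higher level and rank 278 of 22180. Lgals3 is abundant in macrophages. Of the 12 macrophage markers, Cd68 rose by 0.40 (limma adjusted p = 0.0302), Cd14 fell by 0.32 (adjusted p = 0.00954), Csf1r fell by 0.26 (adjusted p = 0.0390), and the other 9 did not pass. Over all genes, 17.1% were called. Cd68 lost its call without WT replicate 2, with a difference of 0.13 (adjusted p = 0.562). Cd14 lost its call without Zip13KO replicate 2 (0.0917), and Csf1r without WT replicate 1 (0.212) or Zip13KO replicate 2 (0.255). In such bulk RNA, fewer cells of a type and less RNA per cell cannot be told apart, and the part of these markers in the Lgals3 value was not tested.

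None of the 4 tandem-repeat galectins passed the threshold. Lgals8, which marks damaged vesicles for autophagy, had log2 intensities of 8.47 and 8.33 in Zip13KO and 8.62 and 8.63 in WT. Both Zip13KO arrays were the lower ones, and the difference of -0.22 (SE 0.08, 95% interval -0.39 to -0.06) missed the threshold over all genes at an adjusted p of 0.0583. It passed with a filter on dim rows, with median centring and without Zip13KO replicate 1. Lgals9, a ligand of the immune receptor Tim-3 and an interferon-responsive gene in human cells, had 10.85 and 10.76 in Zip13KO and 10.83 and 10.82 in WT. Its groups overlapped, at a difference of -0.02 (95% interval -0.15 to 0.12). Lgals4, a galectin of the intestinal epithelium, had 6.37 and 6.42 in Zip13KO and 6.53 and 6.44 in WT, a difference of -0.09 (95% interval -0.26 to 0.08). Lgals12, known from adipocytes, had 6.65 and 6.68 in Zip13KO and 6.51 and 6.72 in WT. The WT arrays of Lgals12 spanned the Zip13KO arrays, and the difference was 0.05 (95% interval -0.14 to 0.23).

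Among the prototype galectins no difference passed the threshold. Lgals1, a galectin that fibroblasts make in quantity, had 12.58 and 12.64 in Zip13KO and 12.70 and 12.70 in WT, a difference of -0.09 (SE 0.05, 95% interval -0.20 to 0.02). After quantile normalization it passed at -0.15. Its intensity of 6111 to 6382 in Zip13KO and 6641 to 6643 in WT exceeded that of more than 99% of rows, and bright probes can compress differences. Lgals2 had 6.10 and 6.10 in Zip13KO and 6.24 and 6.16 in WT, a difference of -0.10 (95% interval -0.26 to 0.07). Lgals7, a galectin of stratified epithelia, had 6.43 and 6.57 in Zip13KO and 6.61 and 6.54 in WT, which overlapped, with a difference of -0.08 (95% interval -0.25 to 0.10). The rows of Lgals2, Lgals4, Lgals7 and Lgals12 lay around the median of all rows or below it, where weak signal cannot be told from background and a change may be missed. Markers of the tissues these galectins are known from were counted too, beside 17.1% of all genes called. Of 8 intestinal epithelial genes and 7 keratinocyte genes, limma called 0, with 0 and 1 at an unadjusted p under 0.05. Of 7 adipocyte genes it called Pparg, which fell by 0.39 (adjusted p = 0.00189). Lists of so few genes cannot tell such counts from the share over all genes.

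**Figure D2:**
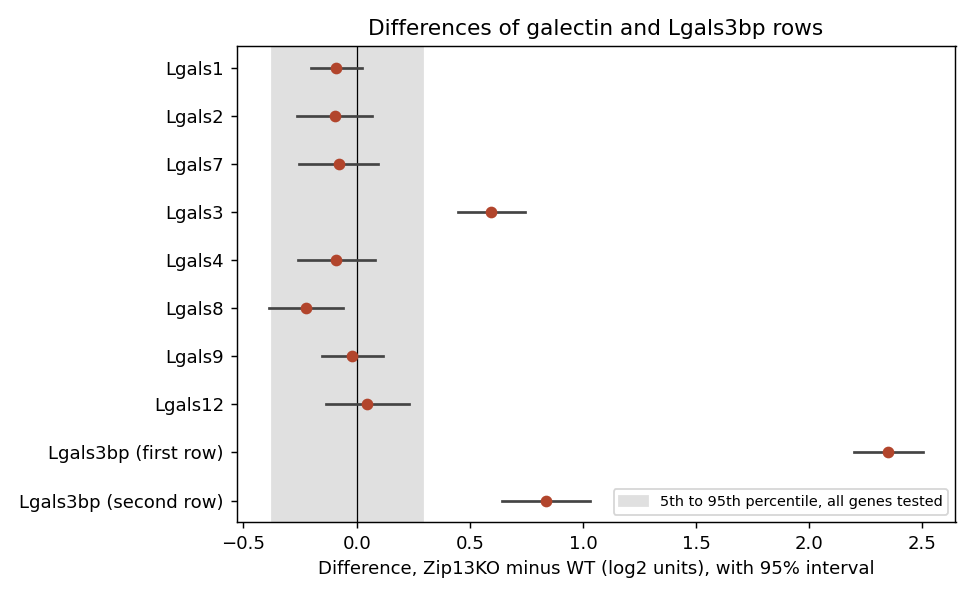
Difference between Zip13KO and WT in log2 units (horizontal axis) for each of the 10 rows, as points with 95% intervals; the grey band holds the 5th to the 95th percentile of the differences of all 22180 genes, -0.37 to 0.29. Both Lgals3bp rows and Lgals3 lie to the right of the band, and the points of the other 7 galectins lie within it.

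In the fit over all genes, 2 of the 9 genes were called, both higher in Zip13KO, where 17.1% of all genes were called, 7% higher and 10.1% lower. The median difference of the 9 genes was -0.08, beside -0.00341 over all genes. The arrays of the groups did not overlap for 6 of the 9 genes, 2 higher and 4 lower, where 51.5% of all genes did not overlap, 24.1% higher and 27.3% lower. The differences were already known when the group was chosen, so these counts are not read further. Of 2 other galectin-fold genes limma called 0, with 0 at an unadjusted p under 0.05. Lgalsl, the galectin-related protein, was at -0.12 (adjusted p = 0.383), Grifin, a lens protein of galectin fold, was not called either, and Lgals6 had no row of its own here.

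Genes whose pattern over the 4 arrays lay nearest to a member were found by Euclidean distance between log2 values centred on each gene's mean. For Lgals3bp these were the carbonic anhydrase Car12 (distance 0.10, difference 2.26), the retinoic acid binding protein Crabp1 (0.16, difference 2.50) and the receptor phosphatase Ptprq (0.17, difference 2.52). For Lgals3 they were the phosphatase gene Dusp4 (0.018, difference 0.61), 2310033P09Rik (0.030, difference 0.57) and Oaf (0.042, difference 0.58). For Lgals8 they were Med6 (0.0055), Pbx3 (0.011) and Ciapin1 (0.021), with differences of -0.22, -0.23 and -0.22. With 4 arrays in 2 groups, likeness of this kind says little more than that the differences are of similar size.

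Neighbours in chromosome order were compared, a choice made after the values were seen, with 17.1% of all genes called and 7% called higher as the background. Of the 5 measured protein-coding genes on each side of Lgals3bp on chromosome 11, limma called 0 of 10, with 0 at an unadjusted p under 0.05 and differences from -0.06 to 0.11. They include Timp2, an inhibitor of matrix metalloproteinases, at -0.01, and Cant1, a calcium-dependent nucleotidase of the secretory pathway, at -0.01. With so few genes, a count of 0 lies close to that background. Around Lgals3 on chromosome 14, 4 of 10 were called higher and none lower. Differences ran from -0.02 to 0.51, and 6 genes had an unadjusted p under 0.05. The 4 were Gch1, which makes the cofactor tetrahydrobiopterin (0.51), the replication factor Wdhd1 (0.49), Mapk1ip1l (0.20) and Peli2, a ubiquitin ligase of innate immune signalling (0.29). Mapk1ip1l lost its call without WT replicate 1, WT replicate 2 or Zip13KO replicate 1 (adjusted p from 0.0608 to 0.220), and Peli2 without WT replicate 2 (0.0593) or Zip13KO replicate 1 (0.0678). Whether their shared position bears on the values was not tested.

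**Figure D3:**
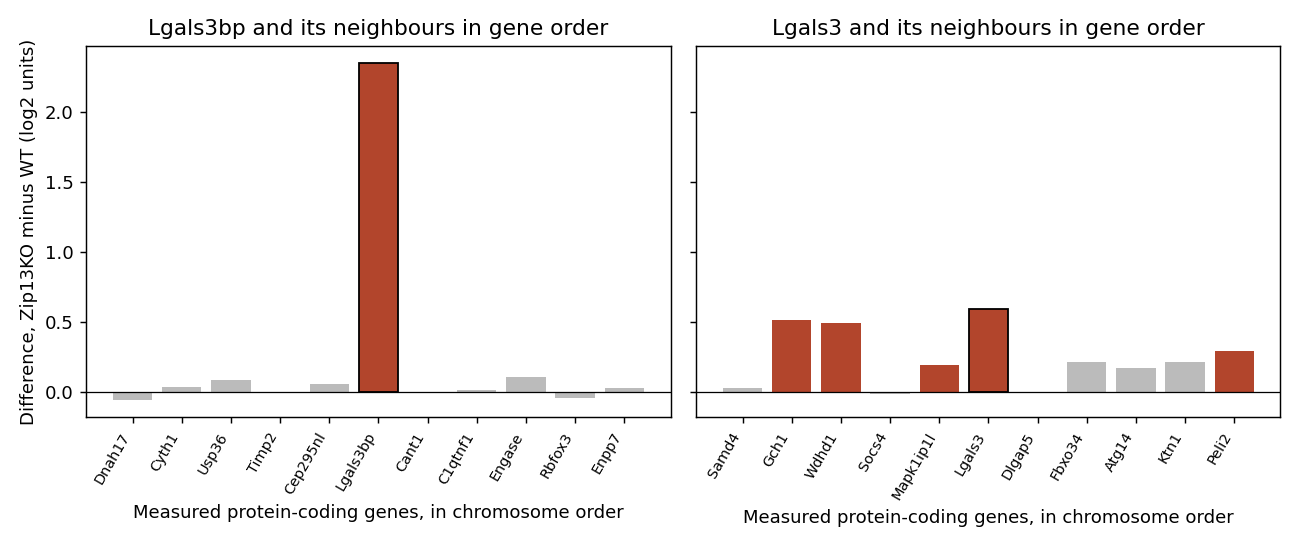
Difference between Zip13KO and WT in log2 units (vertical axis) for Lgals3bp (left) and Lgals3 (right), outlined in black, and the 5 measured protein-coding genes on each side in chromosome order; red bars passed the threshold and grey bars did not. The bars around Lgals3bp stay between -0.06 and 0.11, while 4 of the 10 genes around Lgals3 pass, all higher.

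Promoters of 7 of the 9 genes were matched in RefSeq (GRCm38.p6), and those of Lgals3bp, Lgals3 and Lgals9 are shown because Lgals3bp and Lgals3 gave the higher values of the group, while Lgals9, known as interferon-responsive like Lgals3bp, overlapped between groups. Each is the 250 bases before the annotated start. Capitals mark the interferon-stimulated response element core (GAAA, then 2 bases of any kind, then GAAA) and the shorter interferon regulatory factor core AANNGAAA, on either strand; the shorter lies within the longer, and it was added after the Lgals3bp promoter had been read. Lgals3bp lies on the minus strand (chr11:118401960-118402209), Lgals3 on the plus strand (chr14:47373610-47373859) and Lgals9 on the minus strand (chr11:78984925-78985174).
Lgals3bp: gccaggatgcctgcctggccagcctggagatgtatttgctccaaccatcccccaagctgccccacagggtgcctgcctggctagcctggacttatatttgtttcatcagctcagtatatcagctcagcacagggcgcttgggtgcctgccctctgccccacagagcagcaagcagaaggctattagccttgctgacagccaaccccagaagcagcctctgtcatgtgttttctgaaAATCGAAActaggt
Lgals3: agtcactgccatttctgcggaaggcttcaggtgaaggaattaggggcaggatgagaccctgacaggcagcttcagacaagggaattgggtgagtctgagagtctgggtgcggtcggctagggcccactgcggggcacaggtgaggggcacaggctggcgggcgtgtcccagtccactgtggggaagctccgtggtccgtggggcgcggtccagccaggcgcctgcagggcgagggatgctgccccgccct
Lgals9: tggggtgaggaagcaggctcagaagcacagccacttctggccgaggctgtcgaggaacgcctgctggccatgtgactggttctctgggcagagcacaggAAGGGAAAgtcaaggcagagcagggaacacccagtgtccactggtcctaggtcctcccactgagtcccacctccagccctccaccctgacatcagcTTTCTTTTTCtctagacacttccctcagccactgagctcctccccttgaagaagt
The longer core was found only in Lgals9 among the 7 promoters, and in 2.98% of all 32851 promoters of the table. It lay 55 to 46 bases before the start. The shorter core was found in Lgals3bp, 14 to 7 bases before the start, and at 2 places in Lgals9, 1 of them inside the longer core, and in 21.3% of all promoters. The pattern TGCNCNC is looser than the metal response element core to which the zinc sensor Mtf1 binds in metallothionein promoters. It had a match in Lgals2, Lgals3bp, Lgals4 and Lgals7, not in capitals above, and in 44.4% of all promoters. A match to this pattern need not be a match to that core. Such matches describe letters in this window and are not evidence of binding.

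The interferon-stimulated genes, the class in which Lgals3bp is often placed, were mostly higher on the Zip13KO arrays. Of 37 measured, limma called 20 higher and 0 lower, with 0 lower at an unadjusted p under 0.05, so 54.1% were called. Over all genes, 17.1% were called, 7% higher and 10.1% lower. When all rows of the table were fitted, 13 of the interferon-stimulated genes were called higher. The median difference was 0.27, beside -0.00341 over all genes. Bst2, which tethers budding viruses to the cell, had log2 intensities of 10.92 and 10.69 in Zip13KO and 8.91 and 8.94 in WT, and rose by 1.88 (adjusted p = 6.19e-12). Oasl2, Ifit1 and Rtp4, each an antiviral effector or chaperone, rose by 1.49, 1.40 and 1.33. On the WT arrays these genes lay below the array median, where weak signal cannot be told from background, so the sizes are less certain. Of the 37 genes, 22 lay above the array median on all 4 arrays, beside 12692 of all 22180 genes. The first row of Lgals3bp, at 2.35, lay above all 37, its second row at 0.84 lay among them, and Lgals9 at -0.02 lay with those that did not pass.

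Glycoproteins known as partners of galectins or of Lgals3bp were mostly lower in Zip13KO. Of 41 measured, limma called 21 lower and 3 higher, so 58.5% were called, beside 17.1% of all genes (10.1% lower, 7% higher). The median difference of the list was -0.28. The basement membrane chain Col4a1 fell by 1.56 (adjusted p = 2.66e-10). The adhesion molecule Mcam had log2 intensities of 7.44 and 7.58 in Zip13KO and 8.77 and 8.80 in WT, and fell by 1.27 (adjusted p = 1.54e-09), and the proteoglycan Cspg4 fell by 1.08. Itga6, the laminin-binding integrin chain, had 8.87 and 8.96 in Zip13KO and 7.72 and 7.82 in WT, and rose by 1.15 (adjusted p = 4.94e-09). Also called higher were the integrin chain Itga3 (0.59) and the receptor Tgfbr2 (0.60). Itgb1, the integrin beta chain that pairs with Itga3 and Itga6, fell by 0.82, and the lysosomal membrane glycoprotein Lamp1, a carrier of galectin-binding glycans, fell by 0.36. Itga3, Tgfbr2, Itgb1 and Lamp1 were named after their values were seen. Markers of fibroblasts moved in the same arrays, with 5 of 12 called lower and 1 higher. Among them were Pdgfrb (-0.92), which is on both lists, and Pdgfra (1.04). The part of these markers in the values of the partners was not tested.

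Enzymes that build or cap the glycans that galectins bind changed in both directions. Of 33 measured, limma called 6 higher and 5 lower (33.3% called, beside 17.1% of all genes), with a median difference of -0.02. When all rows were fitted, 2 were called higher. B3gnt3, which extends core glycans towards poly-lactosamine, had log2 intensities of 7.74 and 7.78 in Zip13KO and 6.87 and 7.17 in WT, and rose by 0.74 (adjusted p = 1.53e-05). The sialyltransferase St3gal1 fell by 0.73 and St6gal1, whose own sialic acid linkage blocks binding by Lgals1, fell by 0.49 (adjusted p = 1.98e-04). St6gal1 had 6.15 and 6.08 in Zip13KO and 6.59 and 6.62 in WT. These values lay around the median of all rows or below it, where weak signal cannot be told from background. Fut8, which adds the core fucose of N-glycans, fell by 0.45.

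In the damaged-lysosome response, Lgals3 and Lgals8 bind glycans exposed by broken vesicles. Of 32 measured genes of this response, limma called 6 lower and 0 higher. This is 18.8% called, beside 17.1% of all genes called and 10.1% called lower. There were 3 higher at an unadjusted p under 0.05 and 2 called higher after quantile normalization. The median difference was -0.04. The transferrin receptor Tfrc, which brings iron into the cell, fell by 0.86 (adjusted p = 4.32e-08). The kinase subunit Prkaa2 fell by 0.57, the autophagy protein Gabarapl2 by 0.47 and the segregase Vcp by 0.47. Without Zip13KO replicate 1 Vcp was at -0.30 (adjusted p = 0.00107), and it lost its call when all rows were fitted (0.0884). The list of scavenger receptor cysteine-rich genes, the class to which Lgals3bp belongs, gave 3 lower and 1 higher of 20 (20% called). The list included Loxl1, which lacks that domain, so its counts are not those of the class alone. The lysyl oxidase family members Loxl1, Loxl4 and Loxl3 fell by 0.67, 0.45 and 0.24, and Hhipl1 rose by 0.24. Loxl3 and Hhipl1 lost their calls when single arrays were left out, Loxl3 to an adjusted p of 0.409 without WT replicate 1 and 0.132 without Zip13KO replicate 1, and Hhipl1 to 0.0684 to 0.158 whichever array was left out. The mean of its rows put Hhipl1 at 0.04.

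**Figure D4:**
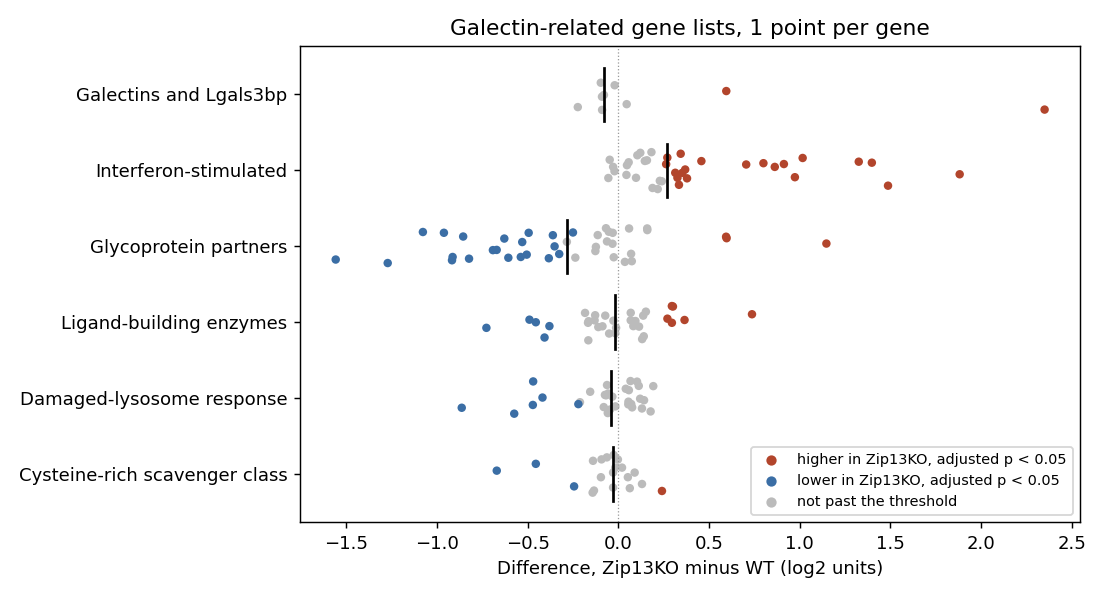
Difference between Zip13KO and WT in log2 units (horizontal axis), 1 point per gene, for the 9 genes of the group and 5 related lists; red points passed higher, blue points passed lower, grey points did not pass, and black lines are list medians. Most interferon-stimulated genes lie to the right of 0 and most glycoprotein partners to the left, with medians of 0.27 and -0.28.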

How the data were processed

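Per the labels, total RNA of Zip13KO and WT fibroblasts was hybridised to Affymetrix arrays. The deposited table holds intensity, linear in scale, made by the authors with Expression Console and RMA, per the submitters' processing notes. RMA evens out the distributions of arrays, which hides a shift common to most genes and compresses differences of dim genes. Log2 was taken here first, without a pseudocount. Symbols came from the platform annotation: 23521 rows had 1 symbol, 1814 several and 16010 none here, and 23328 of the first matched RefSeq (GRCm38.p6) by gene ID. For the 1082 genes with several rows, the row with the highest mean was kept. The second Lgals3bp row was read from a fit over all 41345 rows.

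Zip13KO was compared with WT by limma 3.58.1 in R 4.3.3 (lmFit and trended eBayes, two-sided). P-values were adjusted by Benjamini-Hochberg across the 22180 genes, and a gene was called at an adjusted p under 0.05. An exact permutation test of 2 arrays against 2 has a smallest p of 0.333, so calls depend on the moderated variance, and the number of arrays limits the precision. Alternatives comprised a replicate block, a filter on dim rows, quantile normalization, median centring, untrended or robust eBayes, averaging a gene's rows, a fit to every row, and leaving out single arrays. Tested on simulated data of 22180 genes, limma found 98% of genes shifted by 0.5 log2 units and 100% of those shifted by 1, with 12 false calls among 211. The simulated noise was independent and took the variances that limma fitted to these arrays, so these rates may not hold for the real arrays. The members and lists were chosen with earlier results of these data known. Named genes are every member, Slc39a13, up to 4 called genes per list by size (or the one with the smallest p), up to 2 per marker list, the 3 genes nearest in pattern to each of 3 members, and those said to be named later, with the genes beside Lgals3bp and Lgals3, Csf1r, Grifin, Arsj and Ildr2 among the latter. Endothelial markers gave 0 of 8 called in limma, beside 17.1% of all genes, with 1 at an unadjusted p under 0.05. The list of partners shares Kdr, Pdgfrb, Itgam and Ptprc with marker lists. The figures used Python 3.11.15 and matplotlib 3.10.9.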

Additional observations from a re-analysis of the deposited data

How the results depend on the processing

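Lgals3bp and Lgals3 kept their direction and their call under all 13 alternatives, with Lgals3bp between 1.59 (mean of its rows) and 2.39. Leaving out each array gave 2.31 to 2.39 for Lgals3bp, 0.78 to 0.89 for its second row and 0.55 to 0.64 for Lgals3. Lgals8, at an adjusted p of 0.0583 in limma, passed at -0.22 with a filter on dim rows (0.0388), at -0.23 with arrays centred on their median (0.0454) and at -0.22 with crossed replicate numbers as a block (0.00567). Leaving out arrays moved Lgals8 between -0.29 and -0.15, with a call at -0.29 without Zip13KO replicate 1 (adjusted p = 0.0247). Lgals1 passed at -0.15 after quantile normalization (adjusted p = 0.0286). Uncalled differences changed sign for Lgals9 (0.027 without Zip13KO replicate 2, within a range of -0.067 to 0.027), Lgals12 (-0.057 without WT replicate 1, up to 0.15) and Slc39a13 (-0.00410 without WT replicate 2 and -0.00554 without Zip13KO replicate 2, up to 0.090). Other uncalled differences kept their sign but moved in size as arrays were left out, Lgals7 from -0.14 to -0.013, Lgals4 from -0.13 to -0.046, Lgals2 from -0.14 to -0.054 and Lgals1 from -0.12 to -0.058. The causes were not tested.

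The count of called genes dropped to 1806 when all rows entered the fit and the adjustment, against 3786, and interferon-stimulated genes then gave 13 higher in place of 20. With the replicate number as a block the count was 3364 and with crossed numbers, an alternative added after seeing the data, 5208. Same-numbered arrays deviated from their group means with r = -0.16, which does not settle whether the numbers pair the samples. The block left Lgals3bp at 2.35 and Lgals3 at 0.60, both still called. Of the other named genes, Loxl3 (adjusted p = 0.0591), Hhipl1 (0.0804), Mapk1ip1l (0.102), Pbx3 (0.122) and Ciapin1 (0.129) lost their calls under the block. The mean of its rows put Ciapin1 at -0.072.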
